A study of Mus musculus with 9 samples.

Results

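The immunity-related GTPases, or IRGs, are large GTP-binding proteins that mouse cells make in response to interferon-gamma. The 10 genes described here, Iigp1, F830016B08Rik, BC023105, Gm4841, Gm4951, Igtp, Irgm1, Irgm2, Tgtp1 and Tgtp2, were chosen by symbol from the 54532 genes of a mouse heart count table. The choice rested on measured values: 3 of the 10 had the largest falls between sham and injured hearts in the same libraries, and the choice does not say whether GXNI hearts counted among them. The differences of the members from sham are therefore a description, in MIRI and in GXNI alike. Calls of members against sham apply a p threshold to values that served the choice or may have. They too are a description and not a test of the members. The 9 libraries, 3 in each of 3 groups, were made from the hearts of male wild-type mice of the C57BL/6J strain, 8 to 10 weeks old. Sham mice underwent thoracotomy, and the thread was passed under the left anterior descending coronary artery but not tied. MIRI mice, with myocardial ischemia/reperfusion injury, had the artery tied for 30 min and the heart reperfused for 24 h. Sham and MIRI mice received saline through the tail vein. GXNI mice had the same injury and received Guanxinning Injection, a herbal preparation, at 9 mL/kg. The labels give the cell type as cardiomyocytes, but the RNA came from heart tissue, and endothelial, fibroblast and macrophage markers were all detected.

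Genes that interferon-gamma induces carry promoter elements known as GAS elements and interferon-stimulated response elements, or ISREs, and the transcription factor IRF1 binds the latter. IRG proteins act at membranes. The effector IRGs, among them Iigp1 and the Tgtp proteins, assemble on the vacuoles of intracellular parasites such as Toxoplasma and break them open. The regulatory IRGs, Irgm1, Irgm2 and Igtp, sit on the cell's own membranes and hold the effectors inactive there. The autophagy proteins that attach LC3 to membranes help to place the effectors on the vacuole.

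Promoter sequences were available for 5 of the 10 members, all on chromosome 11, and are shown because the members' levels moved together from library to library. In each 300-base RefSeq promoter (GRCm38.p6, 250 bases before to 50 after the start) the GAS letters TTCNNNGAA, which read the same on both strands, and the ISRE letters GAAANNGAAA (TTTCNNTTTC on the other strand) were searched. An ISRE match was found in all 5 and a GAS match in 4. In Igtp, Irgm2, Tgtp1 and Tgtp2 the matches stood side by side, the GAS match first. The stretches around them are given 5′ to 3′ on the strand of the gene, with matched letters in capitals: Igtp at chr11:58199486-58199546 (+), Irgm2 at chr11:58214877-58214937 (+), Tgtp1 at chr11:48992299-48992359 (-), Tgtp2 at chr11:49064258-49064318 (-) and Irgm1 at chr11:48871420-48871475 (-).
Igtp: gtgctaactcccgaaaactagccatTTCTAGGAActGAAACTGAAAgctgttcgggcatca
Irgm2: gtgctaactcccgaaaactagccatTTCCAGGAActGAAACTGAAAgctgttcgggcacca
Tgtp1: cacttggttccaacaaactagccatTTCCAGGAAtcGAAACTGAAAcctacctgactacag
Tgtp2: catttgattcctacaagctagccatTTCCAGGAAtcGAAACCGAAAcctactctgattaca
Irgm1: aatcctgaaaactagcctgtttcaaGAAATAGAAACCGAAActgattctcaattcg

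The Igtp and Irgm2 stretches had 59 of 61 bases in common and those of Tgtp1 and Tgtp2 had 47 of 61. Igtp and Tgtp2 had 39 in common. The GAS match began 45 bases before the RefSeq start in Igtp, 75 in Irgm2, 88 in Tgtp1 and 81 in Tgtp2. RefSeq and GENCODE starts differ for some members. The promoters of Irgm2 (chr11:58214727-58215026) and Tgtp1 (chr11:48992197-48992496) lie inside the GENCODE spans given below, not at their ends. In Irgm1 no GAS match lay in the window, and its 2 overlapping ISRE matches began 30 and 24 bases before the start. Among all 32851 promoters in the same table, 8.3% held a GAS match, 3.44% an ISRE match and 0.454% both. These promoters belong to related genes and are not independent of each other, and a match of letters is not a bound site.

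The members lie in separate clusters (GENCODE M21 annotation, GRCm38). On chromosome 11, Irgm1 spans 48861968 to 48871683, Tgtp1 48985327 to 48994172 and Tgtp2 49057194 to 49064206, all on the minus strand. Igtp (58199556 to 58207591) and Irgm2 (58199618 to 58222782) lie further along on the plus strand and overlap, with 162 exonic bases in common. On chromosome 18, Gm4951 (60212080 to 60247820, plus), Gm4841 (60268305 to 60273272, minus), F830016B08Rik (60293380 to 60303016, plus), Iigp1 (60376027 to 60392634, plus) and BC023105 (60441765 to 60442980, plus) follow each other. BC023105 is annotated as a processed pseudogene and the other 9 as protein coding. The coding sequences of Tgtp1 and Tgtp2 were 99.7% identical and 79.4% of the 50-base stretches of Tgtp1 transcripts also occurred in Tgtp2, so counts of this pair are uncertain. Gm4951 and Iigp1 were 88% identical over the coding bases. Outside the Tgtp pair, at most 14.7% of a member's 50-base stretches occurred in another gene of the group, the highest being BC023105 with Gm4841.

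Libraries held 17119454 to 22811295 counts, and 3 counts corresponded to 0.132 to 0.175 CPM (counts scaled to a library of 1000000). All 10 members passed the filter on low counts. Every injured library was most similar to a library of another group, and every sham library to another sham library. MIRI 2 was most similar to GXNI 1 (Spearman's rho 0.982 across genes), GXNI 1 to sham 1 (0.984) and GXNI 3 to MIRI 3 (0.987). MIRI 1 and MIRI 3 were most similar to GXNI 3 (0.986 and 0.987), and GXNI 2 to MIRI 1 (0.980). The summed CPM of 6 neutrophil markers was 25.7 in MIRI 2 and 28.4 to 53.2 in the sham libraries, but 642.2 and 544.4 in MIRI 1 and MIRI 3. It was 46.9, 197.4 and 573.6 in GXNI 1, 2 and 3, so GXNI 1 lay inside the sham range. Groups are used as labelled, and whether labels of MIRI 2, GXNI 1 or GXNI 3 were exchanged was not tested. Sham 1 stood apart from the other sham libraries in the members themselves, as described next, and results are given with and without these libraries.

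The members were abundant in sham 2 and sham 3, far less so in sham 1, and low in every injured heart. Their summed level was 476.1, 1916 and 4350 CPM in sham 1, 2 and 3. It was 356.7, 120.9 and 110.5 CPM in MIRI 1, 2 and 3, and 285.0, 205.0 and 272.9 CPM in GXNI 1, 2 and 3. The sham sums thus differed 9.14-fold among themselves, while sham 1 exceeded the highest injured library only 1.33-fold. For all 10 members sham 1 was the lowest sham library, and sham 2 and sham 3 both lay above all 6 injured libraries.

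**Figure D1:**
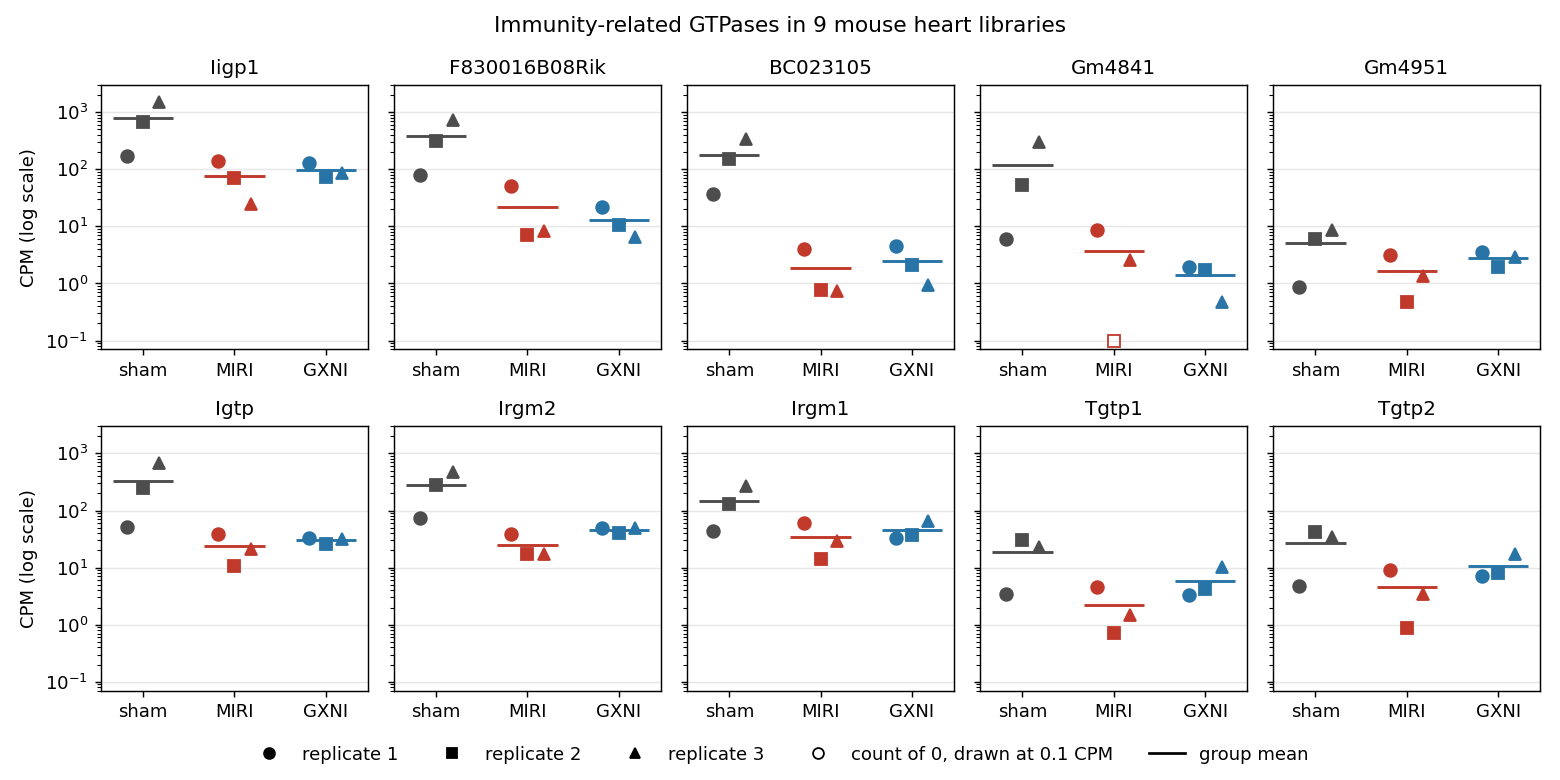
Level of each member in each library in CPM (log axis), with symbols for the replicates and lines for the group means. Sham 2 and sham 3 lie above all injured libraries in all 10 panels; the open square marks the count of 0 for Gm4841 in MIRI 2, drawn at 0.1 CPM.

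Iigp1, an effector that binds the parasite vacuole, had the highest CPM of the members in every library but MIRI 3. Its level was 174.1, 664.1 and 1500 CPM in sham 1, 2 and 3, 138.3, 69.2 and 24.3 CPM in MIRI 1, 2 and 3, and 128.6, 74.6 and 86.6 CPM in GXNI 1, 2 and 3. All 6 injured libraries lay below sham 1. F830016B08Rik, a related gene of the same cluster, was at 79.7, 314.0 and 736.4 CPM in sham, 51.3, 7.01 and 8.37 CPM in MIRI, and 21.9, 10.4 and 6.39 CPM in GXNI, in the order of the replicates. Again no injured library reached sham 1, and MIRI 1 was the nearest.

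BC023105, the annotated pseudogene, was at 37.6, 153.6 and 339.2 CPM in the sham libraries. It was at 4.08, 0.773 and 0.730 CPM in MIRI, and at 4.50, 2.12 and 0.930 CPM in GXNI. Here the groups were widely separated: sham 1, the lowest sham library, was 8.36-fold above GXNI 1, the highest injured one. For the other 4 members without overlap between sham and all injured libraries, Iigp1, F830016B08Rik, Igtp and Irgm2, that ratio was 1.26 to 1.55.

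Gm4841 was at 6.02, 53.8 and 296.4 CPM in the sham libraries, a range of 49.2-fold and the widest among members. It was at 8.67, 0 and 2.53 CPM in MIRI, where MIRI 2 had a count of 0, and at 1.95, 1.73 and 0.465 CPM in GXNI. MIRI 1 therefore exceeded sham 1, whereas all GXNI libraries lay below it. Gm4951, the least abundant sham member, was at 0.860, 5.90 and 8.59 CPM in sham, 3.19, 0.475 and 1.37 CPM in MIRI, and 3.60, 1.92 and 2.91 CPM in GXNI. Sham 1 was the lowest but one of the 9 libraries for this gene.

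Of the regulatory members, Igtp was at 51.3, 249.9 and 666.8 CPM in sham, 38.4, 10.7 and 21.4 CPM in MIRI, and 33, 25.8 and 31.7 CPM in GXNI. Irgm2 was at 75.2, 275.7 and 473.8 CPM in sham, 39.1, 17.2 and 17.5 CPM in MIRI, and 48.7, 39.7 and 49.98 CPM in GXNI. For both genes the injured libraries all lay below sham 1. For Irgm2 the 3 GXNI libraries also lay above the 3 MIRI libraries, while for the other 9 members these groups overlapped. The share of all genes separated in this way between GXNI and MIRI was not computed. Irgm1 was at 43.1, 128.3 and 272.2 CPM in sham, 59.9, 14.0 and 29.4 CPM in MIRI, and 32.4, 36.6 and 66.4 CPM in GXNI. MIRI 1 and GXNI 3 exceeded sham 1.

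The near-identical effectors Tgtp1 and Tgtp2 behaved alike. Tgtp1 was at 3.44, 29.9 and 22.98 CPM in sham, 4.55, 0.713 and 1.502 CPM in MIRI, and 3.30, 4.14 and 10.1 CPM in GXNI. Tgtp2 was at 4.84, 41.2 and 33.9 CPM in sham, 9.14, 0.891 and 3.52 CPM in MIRI, and 7.10, 7.94 and 17.3 CPM in GXNI. These were the only members highest in sham 2, and sham 1 lay inside the range of the injured libraries for both.

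Levels of different genes were set side by side per kilobase of exonic length. In sham the order of mean levels was Igtp (160 ± 155 CPM per kb, SD, n = 3), BC023105 (145 ± 125), Iigp1 (134 ± 115), F830016B08Rik (114 ± 101), Irgm2 (74.5 ± 54.0), Gm4841 (41.8 ± 54.8), Irgm1 (25.5 ± 19.9), Tgtp2 (9.08 ± 6.55), Tgtp1 (5.86 ± 4.28) and Gm4951 (1.93 ± 1.48). The SDs came near or passed the means, but they hold the difference between sham libraries that all members shared. They do not measure how neighbours in this order differed within a library. Iigp1, at 29.9, 114.0 and 257.5 CPM per kb in sham 1, 2 and 3, was above F830016B08Rik (24.2, 95.2 and 223.4) in each. Igtp was below BC023105 in sham 1 (25.4 against 30.9) and above it in sham 3 (329.8 against 278.9). In MIRI the order began with Iigp1 (13.3 ± 9.86) and Igtp (11.6 ± 6.92), and BC023105 was the seventh (1.53 ± 1.58). In GXNI it began with Iigp1 (16.6 ± 4.87), Igtp (14.9 ± 1.90) and Irgm2 (12.5 ± 1.52), and BC023105 was again the seventh (2.07 ± 1.495).

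The spread among sham hearts was unusual for the members. The median range of log2 CPM among the 3 sham libraries was 3.14 for the members and 0.295 for all 15207 genes kept, and each member lay at or above the 99.1 percentile of all genes. Within MIRI the median range was 2.57 for the members and 0.645 for all genes. Within GXNI it was 1.16 and 0.682. By these medians GXNI was the group in which the members varied least, and sham the one in which they varied most. Gm4841 and Tgtp2 went the other way between sham and MIRI. Their ranges were 8.41 and 3.32 in MIRI, where MIRI 2 had a count of 0 for Gm4841, and 5.62 and 3.09 in sham. The log2 CPM of each member had a Pearson correlation of 0.858 (Gm4951) to 0.983 (Igtp) with the mean standardised profile of all 10, itself included, over the 9 libraries. In the same sham libraries the summed markers were 496.3 to 728.6 CPM for endothelial cells, 312.0 to 339.2 CPM for macrophages, 0.860 to 4.06 CPM for B cells and 31320 to 34200 CPM for cardiomyocytes, and their part in the members' spread was not tested.

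Some members kept a nearly constant share of the members' total in the sham hearts and others did not. BC023105 made up 7.90, 8.01 and 7.80% of the members' summed CPM in sham 1, 2 and 3, although the sum itself was 9.14-fold higher in sham 3 than in sham 1. In the injured libraries it made up 1.14, 0.639 and 0.660% (MIRI) and 1.58, 1.03 and 0.341% (GXNI). F830016B08Rik made up 16.7, 16.4 and 16.9% in sham, 14.4, 5.80 and 7.57% in MIRI, and 7.67, 5.07 and 2.34% in GXNI. Gm4841 made up 1.26, 2.81 and 6.81% in sham, and Tgtp1 0.723, 1.56 and 0.528%. In the same libraries Igtp made up 10.8, 13.0 and 15.3%, and Irgm2 15.8, 14.4 and 10.9%. The shares of these 4 genes thus varied among the sham hearts. Irgm1 had a higher share in all injured than in all sham libraries, at 9.04, 6.70 and 6.26% in sham, 16.8, 11.6 and 26.6% in MIRI, and 11.4, 17.9 and 24.4% in GXNI.

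Counts per 100 counts of Iigp1 are a ratio within a library that no scaling changes. BC023105 had 21.6, 23.1 and 22.6 counts per 100 of Iigp1 in the sham libraries, 2.95, 1.12 and 3.004 in MIRI, and 3.50, 2.84 and 1.07 in GXNI. The mean ratio was 9.08-fold higher in sham than in GXNI for BC023105 and 3.71-fold higher for F830016B08Rik. It stayed between 7.08 and 11.5 and between 3.06 and 4.44 when each library was left out in turn. Of 9 such ratios, those of BC023105, F830016B08Rik and Gm4841 were lower, and those of Gm4951 and Irgm1 higher, in all GXNI than in all sham libraries. For Irgm1 the gap was narrow, at 24.7 in sham 1 and 25.2 in GXNI 1. All 9 ratios share the counts of Iigp1, itself a member, and the share of other genes separated in this way was not computed. Between GXNI and MIRI the smallest two-sided exact permutation p over the 9 ratios was 0.3, for F830016B08Rik (1 after adjustment over the 9), where 3 against 3 libraries allow no p below 0.1. This set of ratios was chosen after the values had been seen.

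**Figure D2:**
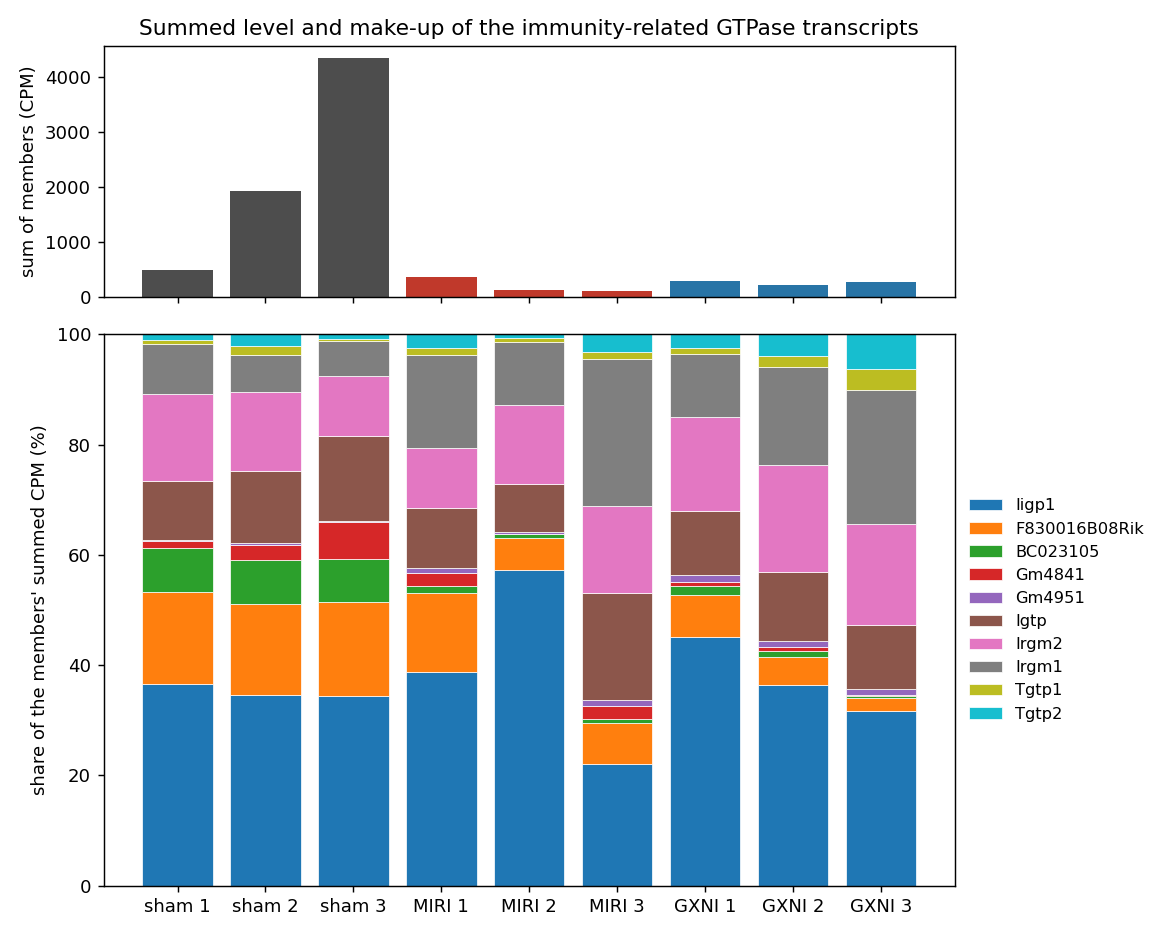
Upper panel, summed level of the 10 members in each library (CPM). Lower panel, share of each member in that sum (%). BC023105 (green) holds 7.80 to 8.01% in the sham libraries and at most 1.58% in the injured ones.

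The first comparison, MIRI against sham, asks how the injury changed the heart's RNA. All 10 members were lower in MIRI, with a median log2 fold change of -3.40 against 0.00 over all genes. The log2 fold changes were -6.55 for BC023105, -4.96 for Gm4841, -4.07 for F830016B08Rik, -3.77 for Igtp, -3.48 for Irgm2, -3.33 for Iigp1, -3.03 for Tgtp1, -2.54 for Tgtp2, -2.09 for Irgm1 and -1.58 for Gm4951. A gene was called when its fold reached 1.5 with p no higher than 0.01 before adjustment. By this rule 5 members were called lower, where 2.82% of all genes were. For 5 members all MIRI libraries lay below all sham libraries, where 16.2% of all genes did so. Without sham 1 the number called was 9, where 1.33% of all genes were called lower. Without MIRI 2 it was 3, where that share rose to 13.3%. It was 3 without sham 2 (1.15% of all genes), 2 without sham 3 (1.17%) and 2 without MIRI 3 (1.53%).

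The next comparison, GXNI against sham, shares the sham libraries with the first and is likewise a description of the members. BC023105, Gm4841, F830016B08Rik, Igtp, Iigp1 and Irgm2 were called lower in GXNI, 6 of 10 members where 1.54% of all genes were. For the same 6 members all GXNI libraries lay below all sham libraries, where 15.5% of all genes did so. The other members, Irgm1, Tgtp1, Tgtp2 and Gm4951, were not called. The median log2 fold change of the members was -2.79, against 0.01 over all genes.

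In this comparison BC023105 was 69.2-fold lower in GXNI (log2 fold change -6.11, SE 0.98). F830016B08Rik was 29.1-fold lower (-4.86, SE 0.91). Gm4841 was 84.1-fold lower (-6.39, SE 1.47), Igtp 10.6-fold (-3.41, SE 0.83), Iigp1 8.02-fold (-3.004, SE 0.72) and Irgm2 5.92-fold (-2.57, SE 0.60). The members not called had log2 fold changes of -1.70 (SE 0.64, Irgm1), -1.68 (SE 0.78, Tgtp1), -1.30 (SE 0.74, Tgtp2) and -0.86 (SE 0.72, Gm4951).

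The call depended on single libraries for most members. Without sham 1 all 10 were called lower, where 0.993% of all genes were. Without GXNI 1 the number was 3, where the share of all genes called lower rose to 7.08%. Without GXNI 2 it was 2 (0.72% of all genes), and without GXNI 3 it was 3 (1.46%). BC023105 and F830016B08Rik were called lower with each of the 6 libraries left out in turn. This is a description too, as these values may have served the choice of the members. Without sham 1 the log2 fold change of Irgm1 was -2.14, and those of Tgtp1, Tgtp2 and Gm4951 were -2.17, -1.80 and -1.36.

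**Figure D3:**
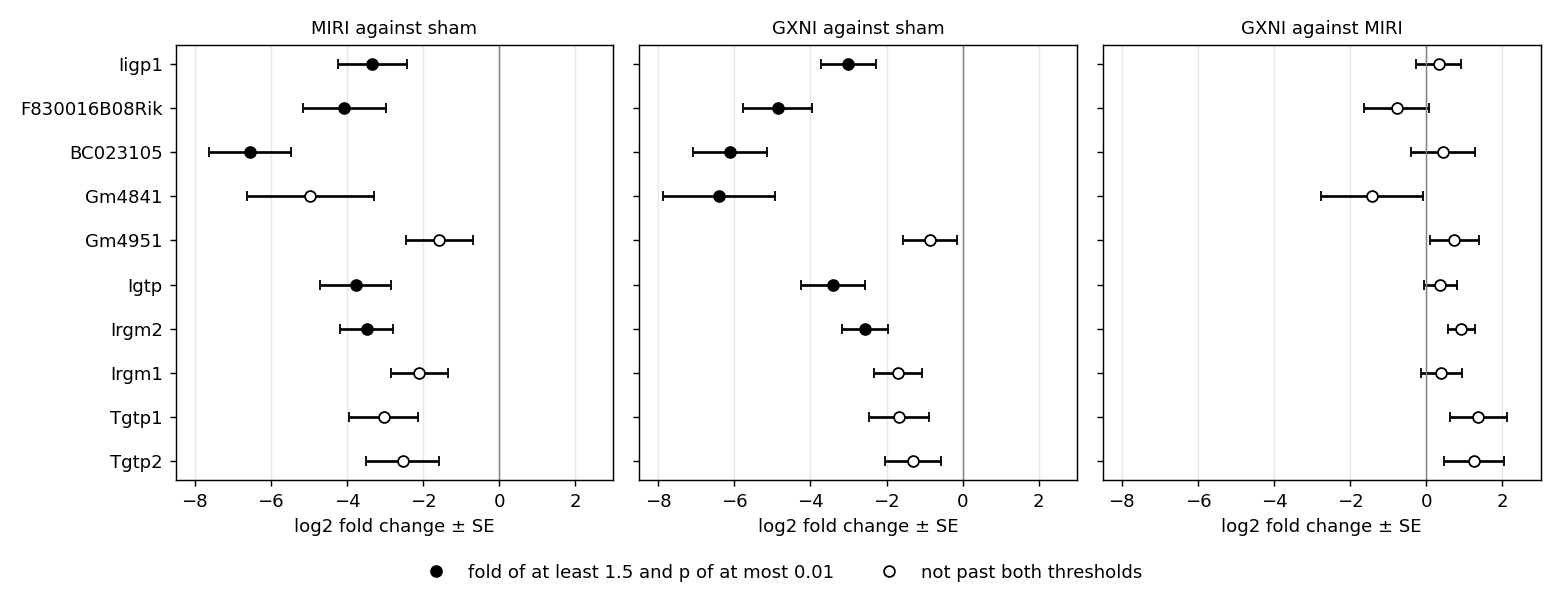
Log2 fold change of each member with its standard error in the 3 comparisons, filled where the gene was called (fold of 1.5 or more, p no higher than 0.01 before adjustment). In GXNI against sham 6 members are filled, and in GXNI against MIRI none. The first and second panels share the sham libraries.

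The last comparison, GXNI against MIRI, asks what the injection changed in injured hearts. No member was called in either direction by edgeR or by DESeq2, where edgeR called 0.0203% of all genes (3 of 14762). Of the 10 members 8 had a higher mean in GXNI, and the median log2 fold change was 0.42 against 0.00 over all genes. Irgm2 was 1.88-fold higher (log2 fold change 0.91, SE 0.35, 95% interval 0.07 to 1.76, edgeR adjusted p = 1) and was the only member at an unadjusted p under 0.05 with either tool. It was called when MIRI 1 was left out (1.42 on the log2 scale).

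For the other members the intervals of the GXNI against MIRI log2 fold change included 0 and were wide. They ran from -1.07 to 1.73 for Iigp1, from -0.67 to 1.40 for Igtp and from -0.89 to 1.69 for Irgm1. They ran from -0.40 to 3.14 for Tgtp1, from -0.60 to 3.11 for Tgtp2 and from -0.81 to 2.29 for Gm4951. BC023105 had an interval from -1.59 to 2.47, F830016B08Rik from -2.83 to 1.27 and Gm4841 from -4.60 to 1.76. A 2-fold rise lay inside the interval of each of these 9 members, and a 2-fold fall inside those of Iigp1, BC023105, F830016B08Rik and Gm4841. Without MIRI 2 and GXNI 3 together, no member was called either. In that fit 4.99% of all genes were called, against 0.0203% with all libraries. The log2 fold change turned negative there for Igtp (-0.01) and Irgm1 (-0.36).

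Interferon-gamma signalling, which induces IRGs, was described through the RNA levels of 18 of its genes. These levels do not measure the activity of the signal. Ifng, the cytokine itself, had 0 counts in all 9 libraries, which allows a level of up to 0.132 to 0.175 CPM by counting error alone. Of the 17 genes tested, 0 were called lower and 1 was called higher in GXNI against sham, and the median log2 fold change was -0.06. The gene called was Ptpn2, a tyrosine phosphatase, at 13.7, 12.5 and 13.3 CPM in sham and 17.7, 27.9 and 42.7 CPM in GXNI (log2 fold change 1.17, SE 0.31, edgeR adjusted p = 0.219). It was not called when any sham library or GXNI 2 was left out.

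Irf1, which binds ISREs, was at 20.96, 60.7 and 58.6 CPM in sham, 21.3, 10.8 and 20.4 CPM in MIRI, and 14.2, 23.4 and 39.1 CPM in GXNI, and was not called in GXNI against sham (log2 fold change -0.86, SE 0.50, edgeR adjusted p = 0.344). Sham 2 and sham 3 were again above all other libraries. Among the protein-coding genes outside the group whose log2 CPM was most like the members' mean standardised profile were Plgrkt (Pearson r 0.981), Tapbpl (0.971), Gbp4 (0.966), an interferon-induced GTPase, and Tnfsf10 (0.957), a ligand of death receptors. These correlations run over the 9 libraries, which share groups and the same contrast between sham libraries.

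The guanylate-binding proteins, GTPases that interferon-gamma induces together with IRGs, were measured through 11 genes, of which 8 were tested. In GXNI against sham all 8 had negative log2 fold changes (median -1.20), and 2 were called lower. Gbp10 was at 3.82, 11.8 and 27.5 CPM in sham, 1.03, 0.357 and 1.93 CPM in MIRI, and 0.300, 0.296 and 0.233 CPM in GXNI (log2 fold change in GXNI against sham -5.65, SE 0.83, edgeR adjusted p = 0.205). Gbp6 was at 27.0, 61.2 and 108.9 CPM in sham, 12.1, 1.96 and 3.18 CPM in MIRI, and 4.85, 6.90 and 6.68 CPM in GXNI (-3.41, SE 0.51, the same adjusted p). Both had all injured libraries below sham 1, the arrangement seen for BC023105. The other 6 had log2 fold changes down to -2.51 (Gbp4) and were not called.

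Of the 7 other immunity-related GTPases, 6 were tested and 0 called by edgeR in GXNI against sham, with log2 fold changes from -2.50 to 0.38 (median 0.10). Gm12250 (-2.50) was at 5.38, 19.2 and 75.5 CPM in sham, 8.44, 1.31 and 3.86 CPM in MIRI, and 4.35, 4.04 and 9.24 CPM in GXNI. Gm12185 (-2.24) was at 0.537, 5.70 and 12.7 CPM in sham and 0.750, 1.04 and 2.21 CPM in GXNI. In both, sham 2 and sham 3 lay above all GXNI libraries and sham 1 did not. These genes were named after their values were seen. Of the 10 genes that attach LC3 to membranes, the machinery that places IRGs there, 0 were called, and their log2 fold changes lay between -0.27 and 0.26. The 15 genes of the type I interferon response had 0 called, with 14 of 15 above 0 and a median of 0.87. In GXNI against MIRI no gene of any of these lists was called, and the median was 0.54 for guanylate-binding proteins, 0.57 for the type I list and 0.10 for interferon-gamma signalling.

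**Figure D4:**
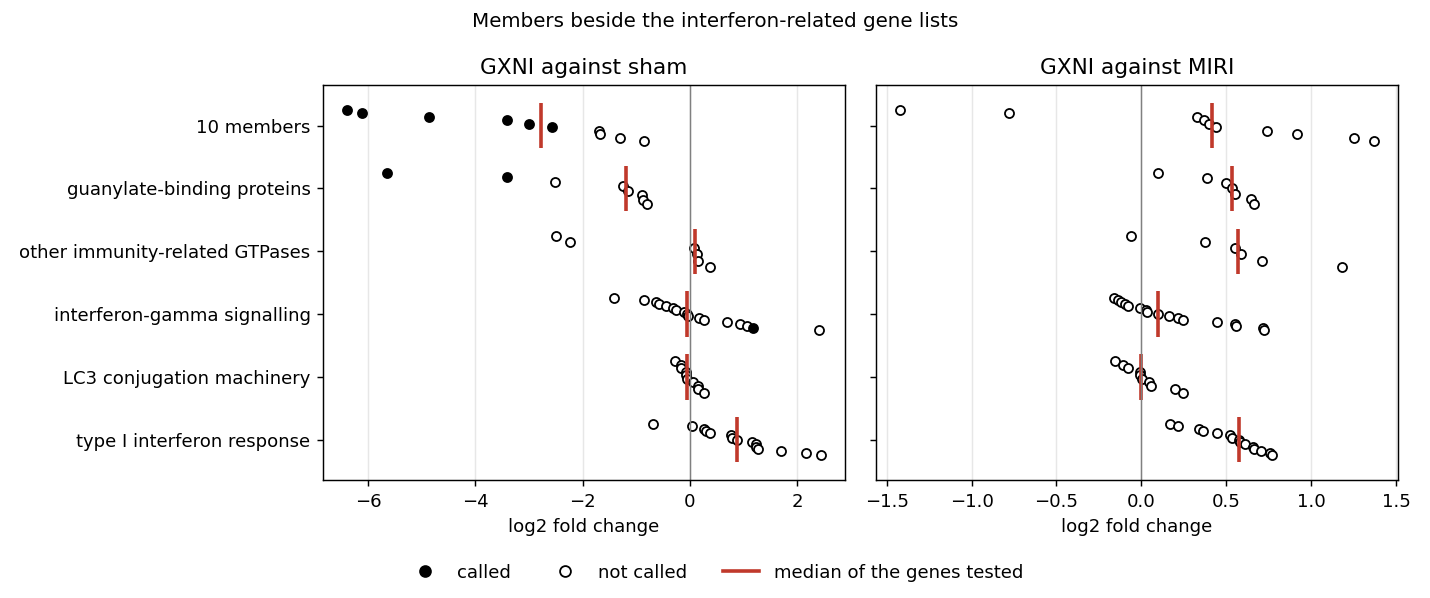
Log2 fold changes of the 10 members and of the genes tested in 5 related lists in GXNI against sham and in GXNI against MIRI (horizontal axes differ in scale), filled where called. In GXNI against sham the median is -2.79 for the members, -1.20 for guanylate-binding proteins and 0.87 for the type I interferon response.

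Of the lymphocytes that release interferon-gamma, NK cells had a lower marker sum in the injured than in the sham libraries. For T cells the sums overlapped between groups. The summed level of 5 NK cell markers was 2.58 to 4.21 CPM in sham, 0.238 to 2.02 CPM in MIRI and 0.542 to 1.80 CPM in GXNI. Only 2 of the 5, Nkg7 and Gzma, passed the filter on low counts in GXNI against sham, and both were called lower. Nkg7 had 13, 14 and 16 counts in sham and 2, 5 and 5 in GXNI. Gzma had 22, 43 and 36 counts in sham and 4, 2 and 9 in GXNI. Both passed through their sham counts alone. The filter thus favoured a lower call, and these calls are a description. Ncr1, a defining NK marker, had 2, 7 and 13 counts in the sham libraries and 0, 0 and 3 in GXNI. Klre1, of the same list, did not follow, with 3, 6 and 2 counts in sham and 2, 1 and 7 in GXNI. The summed level of 6 T cell markers was 1.24 to 2.68 CPM in sham, 0.416 to 3.18 CPM in MIRI and 1.09 to 2.91 CPM in GXNI, and Cd3d, Cd3e and Cd3g had at most 6 counts in any library. The part of these cells in the members' levels was not tested. In heart tissue, fewer cells that express a gene and less RNA per cell cannot be told apart.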

How the data were processed

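RNA from 9 mouse hearts (3 sham, 3 MIRI, 3 GXNI) was sequenced. The deposited values are raw read counts per gene, which the authors made by removing adapter and low-quality reads, aligning with HISAT2 to mm10 and counting with featureCounts of Subread; versions, annotation release and strand setting are not given in the sources used here. Groups came from the sample titles. Genes were filtered with filterByExpr, scaled by TMM and tested over all genes with edgeR 4.0.16 in R 4.3.3 (quasi-likelihood test, the 6 libraries of each comparison), with Benjamini-Hochberg adjustment. A gene was called when its fold reached 1.5 with p no higher than 0.01 before adjustment, the study's thresholds. CPM used TMM-scaled totals. Alternatives were the replicate block, DESeq2 1.42.0, RLE scaling, keeping low-count genes, fitting all 9 libraries together, an adjusted p of 0.05 and leaving out each library. The fits were tested on simulated data. Named were all members, called genes of the lists, Ifng, Irf1 and the genes most like the members; 1 gene that the rule names is not reported here. The members and lists were chosen with earlier results of these data known. Levels per kilobase used GENCODE M21 exons; promoters came from RefSeq. Columns of the authors' own comparisons, which hold fold changes and p-values, were not used. The study gives 3 independent animals per group. Differences of the members from sham served their choice or may have. Their calls against sham use a p threshold but are a description, not a test of the members.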

Additional observations from a re-analysis of the deposited data

How the results depend on the processing

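Against sham, each member kept its direction in MIRI and in GXNI under every alternative run. The number of members called lower was 5 in MIRI and 6 in GXNI. It ranged from 2 to 9 and from 2 to 10 when each library was left out in turn. Requiring an adjusted p of at most 0.05 gave 0 in both with edgeR. At that threshold edgeR passed only 2 of 14644 genes in MIRI against sham and 0 of 14695 in GXNI against sham. DESeq2 passed 7 members in MIRI and 6 in GXNI against sham, also a description. Over all genes DESeq2 passed 2025 of 27901 and 834 of 27966. Without a filter on low counts, 9 were called lower in MIRI against sham, where 2.88% of all genes were. DESeq2, RLE scaling and all 9 libraries in 1 fit left both counts within 1.5 times. In GXNI against MIRI the count was 0, and 0 to 1 with each library left out. There the log2 fold change ranged from -0.28 to 1.75 for BC023105, -1.40 to 0.75 for F830016B08Rik, -2.00 to 0.12 for Gm4841 -0.10 to 1.05 for Iigp1, 0.02 to 0.92 for Igtp and 0.01 to 1.07 for Irgm1 with each library left out. It was -0.015 for Igtp and -0.36 for Irgm1 without MIRI 2 and GXNI 3. The replicate numbers showed no uniform pairing of the libraries. The correlations of same-numbered deviations were -0.09, 0.05 and 0.11 for MIRI with sham and 0.11, -0.08 and 0.12 for GXNI with sham. For GXNI with MIRI they were -0.44, 0.13 and 0.70, so they were larger there and differed in sign. Differently numbered libraries were not compared, so a pairing was not tested. With the replicate block, 1 member was called lower in MIRI (2.51% of all genes) and 4 in GXNI (1.57%) than in sham. Between GXNI and MIRI 0 were called (0.0203%). Over all genes, leaving out MIRI 2 raised the share called in MIRI against sham from 8.97 to 30.2%, and leaving out GXNI 1 raised it in GXNI against sham from 4.21 to 17.8%. At this depth Gm4951, with 8 to 161 counts, and Gm4841, with 0 to 59 counts in 5 of the 6 injured libraries, allow only coarse estimates.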
